A study of Mus musculus with 4 samples.

Results

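A group of 9 genes carried many reads in the input RNA of mouse embryonic stem cells, and more in cells transfected with mutant Dis3l2 than in mock cells. They are Gm26870, Gm17821, A130077B15Rik, Zfp488, Zfp781, Olfr856-ps1, Olfr613, Vmn1r58 and 4930470H14Rik. They were chosen by symbol from 2 deposited tables, and their input values in these libraries were known when they were chosen. The input levels and the mutant to mock input ratio are therefore given below as a description. They are 9 of 20793 gene symbols and have 11 of 22781 transcript rows. Gm26870 has 3 rows in the noncoding table, and the other 8 genes have 1 row each in the mRNA table.

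The study looked for RNAs bound by a mutant form of Dis3l2, a 3′ to 5′ exoribonuclease that prefers RNA with uridine tails. The cells were C57BL/6 mouse embryonic stem cells at passages 25-30, grown without feeders on gelatin with LIF and serum. One culture condition was transfected with FLAG-tagged mutant Dis3l2 and the other was mock transfected; the labels do not name the mutation or the vector. From each condition there is 1 library of input RNA depleted of ribosomal RNA (RiboMinus) and 1 library of RNA recovered on anti-FLAG M2 gel (immunoprecipitation, IP). Each of the 4 groups thus holds 1 library. There is no replicate, no test of a condition was possible, and intervals below are exact 95% intervals that cover counting error only.

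The genes belong to several classes, of which the chemosensory receptors are not usually prominent in stem cells. Olfactory receptors are G protein-coupled receptors that detect odorants in sensory neurons of the nose, and each neuron expresses a very small part of the family. Vomeronasal type 1 receptors detect pheromones in the vomeronasal organ. Zfp488 is a zinc finger transcription regulator known from oligodendrocyte differentiation, and Zfp781 is a zinc finger protein gene. RefSeq lists A130077B15Rik and 4930470H14Rik as long noncoding RNAs, Gm17821 as a pseudogene and Olfr856-ps1 as a transcribed pseudogene.

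The sequences upstream of the members' start sites were examined because the genes share no family, to show whether they have any stretch in common with one another or with other genes. RefSeq windows (GRCm38.p6) were found for 5 of the 9 genes, and the 250 bases before the start site are used here. Capitals mark bases inside words of 25 letters that also occur, on either strand, upstream of at least 1 other gene; lower case marks letters without such a match. The windows are given 5′ to 3′ in the direction of transcription. They lie at chr7:103550118-103550367 on the plus strand for Olfr613, and on the minus strand at chr7:5413146-5413395 for Vmn1r58, chr10:81930513-81930762 for Zfp781 and chr14:33978765-33979014 for Zfp488.
Olfr613: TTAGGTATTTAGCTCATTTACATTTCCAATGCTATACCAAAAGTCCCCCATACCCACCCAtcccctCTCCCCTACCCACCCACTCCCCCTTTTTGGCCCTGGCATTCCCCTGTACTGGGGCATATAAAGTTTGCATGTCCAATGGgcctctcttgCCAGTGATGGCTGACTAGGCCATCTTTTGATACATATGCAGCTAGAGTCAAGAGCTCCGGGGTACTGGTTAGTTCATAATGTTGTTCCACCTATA
Vmn1r58: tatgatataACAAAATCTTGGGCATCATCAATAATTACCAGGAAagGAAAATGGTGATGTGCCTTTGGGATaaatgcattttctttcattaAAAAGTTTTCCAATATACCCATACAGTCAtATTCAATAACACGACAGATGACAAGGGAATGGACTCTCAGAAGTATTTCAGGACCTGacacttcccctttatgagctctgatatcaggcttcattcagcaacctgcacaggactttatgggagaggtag
Zfp781: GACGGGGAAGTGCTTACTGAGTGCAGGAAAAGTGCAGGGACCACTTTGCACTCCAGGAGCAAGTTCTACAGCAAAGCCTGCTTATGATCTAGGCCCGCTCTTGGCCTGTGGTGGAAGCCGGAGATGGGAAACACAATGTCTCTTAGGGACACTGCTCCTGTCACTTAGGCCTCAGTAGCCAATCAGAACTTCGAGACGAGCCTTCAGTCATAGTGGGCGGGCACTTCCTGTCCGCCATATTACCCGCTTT
Zfp488: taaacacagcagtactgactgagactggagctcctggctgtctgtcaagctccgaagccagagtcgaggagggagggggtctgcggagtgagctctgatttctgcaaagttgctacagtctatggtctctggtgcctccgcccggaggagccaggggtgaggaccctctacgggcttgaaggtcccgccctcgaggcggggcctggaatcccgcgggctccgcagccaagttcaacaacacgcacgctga
The Olfr613 window was the most widely shared: 234 of its 250 bases lay in words found upstream of 52 other genes. Only 0.904% of 32851 windows shared words with as many genes. The Zfp781 window was shared along all 250 bases, but with just 2 genes, BC024063 and Gm3055. The Vmn1r58 window shared 146 bases with 1 gene of its own family, Vmn1r63. The windows of Zfp488 and of A130077B15Rik (chr10:122569892-122570141, minus strand) had 0 shared bases. Over all windows 22.7% shared a word with another gene. The 5 windows thus differed widely by this measure, and none of the 5 shared a word of 25 letters with another of the 5. The windows lie outside the transcripts, so they do not show which transcript letters the reads came from.

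Short promoter motifs were searched on both strands as well. TATAAA, the TATA box, was found upstream of Olfr613 only among the 5 windows, and in 12.4% of all windows. GGGCGG, a GC box, was found upstream of Zfp781 and Zfp488 and in 32.7% of all windows. CCAAT was found upstream of Vmn1r58, Olfr613 and Zfp781 and in 33.8% of all windows. A match describes the letters and is not a binding site.

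Library depth was uneven between the tables. In the mRNA table the inputs held 307324 reads (mutant) and 291175 (mock), and the IPs 2275647 and 1860030. In the noncoding table the libraries held between 2157604 and 3183346 reads. Deposited values are reads divided by a factor of 1.8 (mutant input), 2.7 (mutant IP) or 2.5 (both mock libraries). They are not divided by transcript length, so values are compared between libraries and not between genes. A single gene, Lars2, held 1182576 and 1089665 of the IP reads in the mRNA table and 102380 and 101393 of the input reads, which lowers the share of every other gene, most in the IPs. Dis3l2 itself had 7 input reads in mutant and 3 in mock cells, and 127 and 21 IP reads.

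The stem cell label was checked against marker genes in the same table. All 12 stem cell markers were listed; they summed to 145 (mutant) and 219 (mock) reads in the inputs and to 3949 and 2769 in the IPs. Pou5f1, a core pluripotency factor, had 48 and 62 reads in the inputs. Of 10 markers of olfactory and vomeronasal neurons 6 were listed, with summed reads of 30, 25, 507 and 304 in the same order. Omp, a marker of mature olfactory neurons, had 0 reads in the mutant input and 1 in the mock input, and Trpc2, the channel of vomeronasal neurons, had 0 in both. In the IPs Omp had 44 and 35 reads and Trpc2 had 11 and 11. The signalling genes of this list that other cells also use had input reads of 12 and 18 (Gnai2), 11 and 6 (Adcy3), 7 and 0 (Gnal) and 0 and 0 (Gnao1). The 5 oligodendrocyte markers summed to 14 and 9 reads in the inputs and to 25 and 34 in the IPs. Olig2, with which Zfp488 is known to act, had 0 reads in both inputs. The 3 listed endoderm markers summed to 2 and 0 input reads, the 4 mesoderm markers to 20 and 34, and the 3 listed fibroblast markers to 16 and 10. In the IPs these 3 lists summed to 20 and 26, 30 and 20, and 99 and 27. In bulk RNA, fewer cells of a type and less RNA per cell cannot be told apart, and what part other cell types have in the members' values was not tested.

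Among the 9 genes Gm26870 differed most between the inputs. Its leading transcript, ENSMUST00000181242.1, had input values of 43535.56 (mutant) and 3311.2 (mock), and IP values of 24.81 (mutant) and 22.4 (mock). The mutant input stands far above the other libraries and both IPs are close to each other at a very low level. In reads these 4 values are 78364, 8278, 67 and 56. The mutant to mock ratio in the inputs was 13.1 (12.9 to 13.5).
The transcript ENSMUST00000181572.1 had values of 26112.78, 2041.2, 19.26 and 18 in the same order, with an input ratio of 12.8 (12.4 to 13.2). The transcript ENSMUST00000181957.1 had 21485.56, 1681.6, 13.7 and 17.2, with an input ratio of 12.8 (12.4 to 13.2). All 3 transcripts thus showed the same pattern over the libraries.
Of the reads on the 3 transcripts, ENSMUST00000181242.1 took 47.8% (47.5 to 48.0) of the mutant and 47.1% (46.3 to 47.8) of the mock input, and 42.9% (35.1 to 51.1) of the mutant and 38.9% (30.9 to 47.4) of the mock IP. Reads were thus divided among the transcripts in nearly the same way in both inputs, with intervals that overlap, although their number differed. Together the 3 transcripts held 5.97% of the mutant and 0.642% of the mock input reads in the noncoding table, against 0.0049% and 0.00667% of the IP reads. The sources used here do not say whether reads with several alignments were counted on each transcript.

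**Figure D1:**
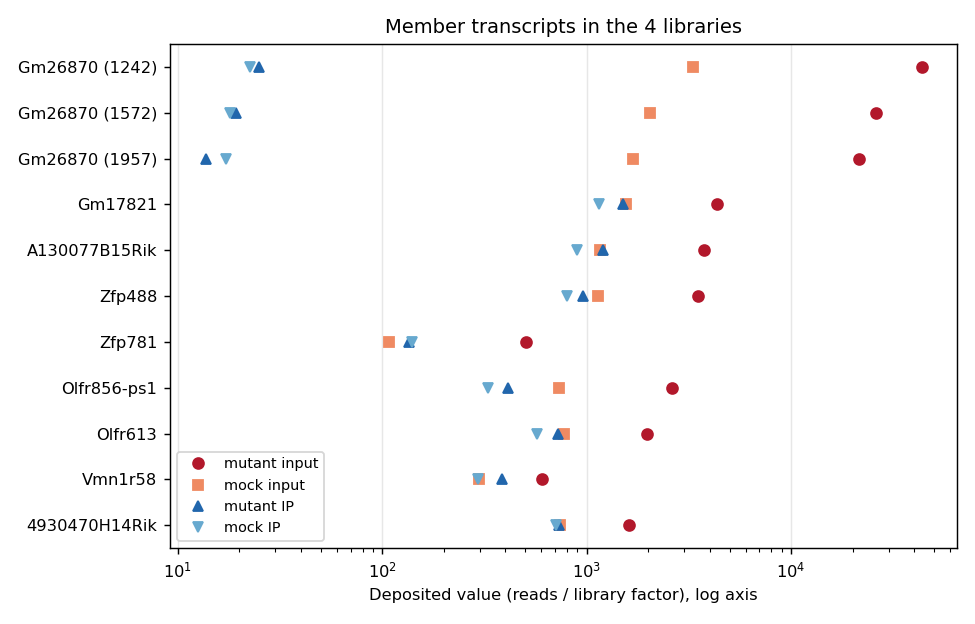
Deposited value of each of the 11 member transcripts (horizontal log axis, reads divided by the library's factor) in the 4 libraries, 1 point per library; the 4 digits after Gm26870 are the last of the transcript identifier. The mutant input (red circles) is the highest library for every transcript, and only the Gm26870 transcripts have IP values below 30.

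Among the members of the mRNA table, Gm17821 had the largest number of reads. Its input values were 4338.89 (mutant) and 1552 (mock), and its IP values 1505.93 (mutant) and 1145.2 (mock). The mutant input stood apart, and the other 3 libraries lay much closer to each other. The input ratio was 2.80 (2.69 to 2.91).

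The long noncoding RNA A130077B15Rik had values of 3741.67, 1166.8, 1208.15 and 894.4 in the same order of libraries, with an input ratio of 3.21 (3.07 to 3.35). The long noncoding RNA 4930470H14Rik had 1606.67, 737.2, 735.19 and 709.2, with an input ratio of 2.18 (2.06 to 2.31). For 4930470H14Rik the mock input and both IPs were nearly level, whereas the mutant input was above them.

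Of the zinc finger genes, Zfp488 had values of 3510.56, 1138, 963.7 and 802.4, an input ratio of 3.08 (2.95 to 3.23). Zfp781 had 507.22, 107.6, 134.81 and 140, an input ratio of 4.71 (4.11 to 5.42). Zfp781 was the member of the mRNA table with the fewest reads, 269 in the mock input, and with the highest ratio, and it was the only one of these 8 with a mock input below both IPs.

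Of the chemosensory receptor genes, Olfr856-ps1 had values of 2627.22, 735.2, 411.11 and 330.4, an input ratio of 3.57 (3.39 to 3.77). Olfr613 had 1979.44, 776.4, 720.74 and 572.8, an input ratio of 2.55 (2.41 to 2.7). Vmn1r58 had 601.11, 298.8, 382.96 and 293.6, an input ratio of 2.01 (1.83 to 2.21). Olfr856-ps1 was lower in both IPs than in either input, Olfr613 was also lower there but by less, and Vmn1r58 differed by less between the other 3 libraries than from the mutant input. The interval of Vmn1r58 includes 2-fold, and with a pseudocount of 5 its log2 ratio was 0.996, just under 2-fold.

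Together the 8 transcripts held 11.1% (11.0 to 11.2) of the mutant and 5.59% (5.51 to 5.68) of the mock input reads in the mRNA table, against 0.719% (0.708 to 0.730) and 0.657% (0.645 to 0.669) of the IP reads. By reads, 8 of 8 were among the first 25 transcripts of the mutant input and 6 of 8 among those of the mock input. The IPs held several of them too: 5 of 8 were among the first 25 in each IP, with Gm17821 at position 7 (mutant IP) and 5 (mock IP), and A130077B15Rik at 9 and 7. Zfp781 was at position 413 and 259 in the IPs, and Gm26870's leading transcript was at 938 and 828 in the noncoding table. These positions rank reads, which also depend on transcript length.

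The input ratio was used in choosing the genes, so the counts that follow only place them among other features. With log2 ratios after adding 1 to each value, 8 of 8 members of the mRNA table passed 2-fold upward in the mutant input, as did 37% of 9367 measured genes, while 21.8% passed 2-fold downward. Among the 1019 genes with at least 20 reads in both inputs, 15.2% were higher and 0.0981% lower. The median log2 ratio was 1.55 over the members and 0.51 over all measured genes. Gm26870 passed upward as well, as did 29% of 2533 measured genes of the noncoding table, with 13.6% downward. Among its 1053 genes with at least 20 reads in both inputs these shares were 11.3% and 4.37%. Over all 2533 they became 13.4% and 17.6% when centred and 16.7% and 16.4% with equal totals. With libraries centred on the median of genes with at least 20 reads, 5 of the 8 kept a 2-fold difference, and with equal totals 4 of 8 (Zfp781, Olfr856-ps1, A130077B15Rik and Zfp488). Centring turned the share of all genes higher and lower to 21.8% and 27%, and equal totals turned it to 33.4% and 29.9%. The log2 ratio of Vmn1r58 was 0.46 with equal totals and that of Gm26870 was 3.24.

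Genes that the choice left out lay in the same range. Of 40 transcripts of the mRNA table with at least 500 reads in the mutant input, 14 (35%) had an input ratio of at least 2, and 6 of these 14 were not members. Named after their values were seen, they are A730017L22Rik at 3.27, the imprinted antisense RNA Kcnq1ot1 at 2.75, the minor spliceosomal snRNA Rnu12 at 2.43, G530011O06Rik at 2.30, Gm17644 at 2.26 and Ccdc82 at 2.18. The next below 2-fold was Gm9159 at 1.92. Among the noncoding transcripts, 175 had that many reads and 11 besides those of Gm26870 passed 2-fold, the highest being RP23-341H2.4 at 3.94. By gene symbol the share was 7.27% of 165. Kcnq1ot1 also has a row among the 175 noncoding transcripts, which did not pass. Its ratio there was 1.33, with 1349 (mutant) and 1414 (mock) input reads. No other transcript among those 175 came near the ratios of 12.8 to 13.1 of Gm26870.

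**Figure D2:**
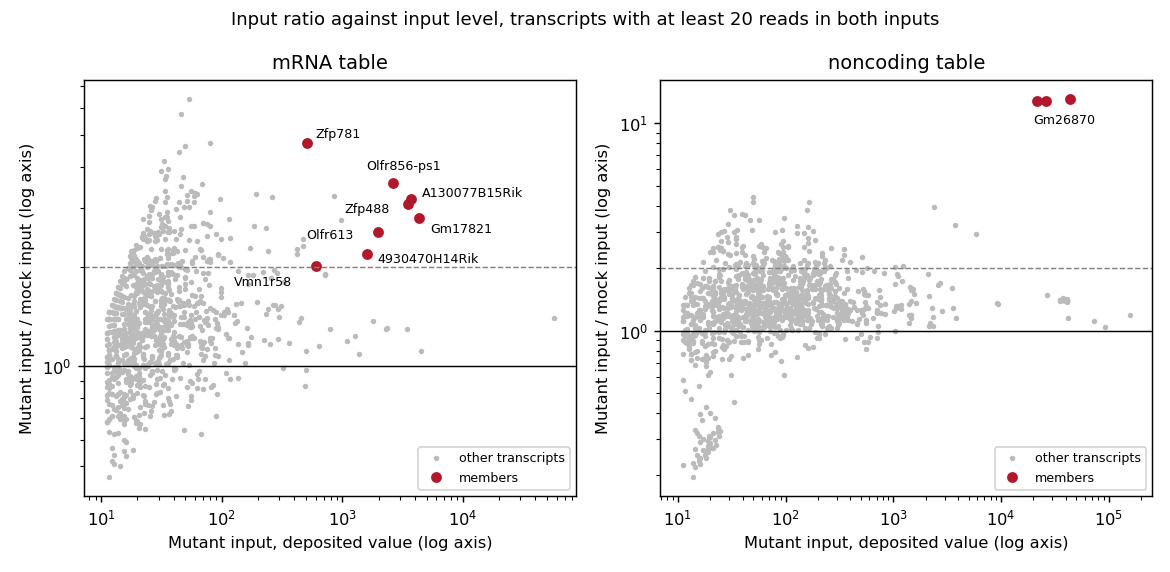
Ratio of mutant to mock input against the mutant input value (both log axes) for transcripts with at least 20 reads in both inputs, mRNA table on the left and noncoding table on the right; red points are the members, the solid line is a ratio of 1 and the dashed line 2. The 8 members of the mRNA table lie at 2.01 to 4.71, and the 3 Gm26870 transcripts lie at 12.8 to 13.1. Unlabelled grey transcripts lie in the range of the 8, some at input values above those of Vmn1r58 and Zfp781.

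The mutant IP was set against the mock IP, the comparison that addresses which RNAs come down with the tagged protein. These 2 libraries were not named in the choice of the genes. The members differed little between the IPs: 0 of 8 passed 4-fold in either direction, where 10.1% of 14273 genes of the mRNA table passed upward and 5.74% downward. Gm26870 did not pass either, where 13.5% of 3506 genes of the noncoding table passed upward and 5.99% downward. At 20 or more reads in both IPs the shares were 0.521% and 0.046% for mRNA and 7.88% and 0.0829% for noncoding genes. Among genes with at least 500 reads in the mutant input, 19.4% of 36 mRNA and 31% of 158 noncoding genes were at least 4-fold up in the mutant IP, and none of the 9 members was. The noncoding share counts symbols, many of them snRNA entries with similar values, such as Rnu1a1, Rnu1b1 and Rnu1b2 at IP ratios of 8.01, 7.43 and 7.33. Whether the same reads were counted on each was not tested, so shares of this noncoding group may count 1 RNA several times. The median log2 ratio was 0.32 over the 8 members and 0.38 over all measured genes.
The ratio was highest for A130077B15Rik at 1.35 (1.28 to 1.43), followed by Gm17821 at 1.31 (1.25 to 1.38), Vmn1r58 at 1.30 (1.19 to 1.44) and Olfr613 at 1.26 (1.17 to 1.35). It was 1.24 for Olfr856-ps1 (1.14 to 1.36) and 1.20 for Zfp488 (1.13 to 1.27). These 6 intervals lie above 1 and neighbouring ones overlap.
The intervals of 4930470H14Rik, at 1.04 (0.972 to 1.11), and of Zfp781, at 0.963 (0.829 to 1.12), include 1. After centring on the median of genes with at least 20 reads in both IPs, which lowers every log2 ratio by 0.31, the members lay between -0.36 for Zfp781 and 0.12 for A130077B15Rik, and Zfp488 and 4930470H14Rik turned to -0.05 and -0.26. With equal totals 4930470H14Rik was at -0.13.
Gm26870 had a ratio of 1.11 (0.765 to 1.61) for its leading transcript, 1.07 (0.704 to 1.63) for ENSMUST00000181572.1 and 0.797 (0.499 to 1.27) for ENSMUST00000181957.1. The log2 ratio of the leading transcript turned to -0.25 when centred and -0.29 with equal totals. A difference between the IPs was not detectable for Gm26870 at 37 to 67 reads per transcript.

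**Figure D3:**
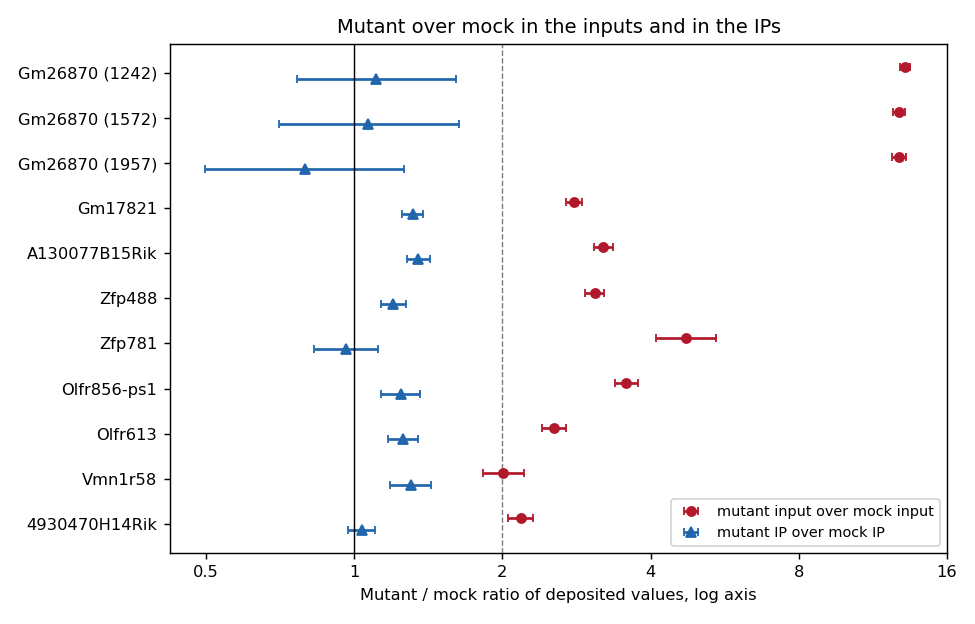
Mutant to mock ratio of the deposited values (horizontal log axis) for each member transcript in the inputs (red circles) and in the IPs (blue triangles), with exact 95% counting intervals as bars; the solid line is 1 and the dashed line 2. Input ratios run from 2.01 to 13.1 and IP ratios from 0.797 to 1.35, with no overlap of the paired intervals.

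Each IP was also set against its own input. These ratios use the input libraries that chose the genes, and the labels describe depletion of ribosomal RNA for the inputs and not for the IPs. In the mutant cells all 8 members of the mRNA table were lower in the IP than in the input. Vmn1r58 was at 0.637 times its input (0.584 to 0.694), 4930470H14Rik at 0.458 (0.432 to 0.485), Olfr613 at 0.364 (0.344 to 0.385), Gm17821 at 0.347 (0.334 to 0.361) and A130077B15Rik at 0.323 (0.310 to 0.337). Zfp488 was at 0.275 (0.262 to 0.287) and Zfp781 at 0.266 (0.235 to 0.300). Olfr856-ps1, at 0.156 (0.146 to 0.167), was the 1 member of 8 at least 4-fold lower, where 2.32% of 13637 genes were, and 0 of 8 were among the 61.1% that were at least 4-fold up. The median log2 ratio was -1.58 over the members and 2.44 over all measured genes.

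Low IP to input ratios were common among genes of the mRNA table picked for high input. That input is the denominator of the mutant ratio, so the pick itself favours low ratios. Among the 40 genes with at least 500 reads in the mutant input, which include small nucleolar and small Cajal body RNAs such as Snora43 and Scarna13, 47.5% were at least 4-fold lower in the mutant IP and 7.5% up, with a median log2 ratio of -1.88. In the mock cells 52.5% of the same 40 were lower and 7.5% up. Over genes with at least 20 reads in both libraries of a ratio, 39.7% were up and 1.89% lower in mutant cells, and 44% and 1.45% in mock cells. The genes up in the mutant IP were Malat1 (32.0), Lars2 (7.70) and Ccdc82 (4.09). The members' median of -1.58 lay above the -1.88 of the 40 genes with the highest input, which include the members.

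In the mock cells the members were closer to their input. The input ratio was used in choosing the genes, which itself favours lower IP to input ratios in mutant than in mock cells. Zfp781 was higher in the IP, at 1.30 (1.11 to 1.53). Vmn1r58, at 0.983 (0.886 to 1.09), and 4930470H14Rik, at 0.962 (0.901 to 1.03), could not be told from 1. The other 5 were lower, from 0.767 for A130077B15Rik (0.725 to 0.810) through 0.738 for both Gm17821 and Olfr613 and 0.705 for Zfp488 to 0.449 for Olfr856-ps1 (0.413 to 0.488). None of the 8 reached 4-fold, where 60.6% of 13111 genes were up and 1.92% lower. The median log2 ratio was -0.41 over the members and 2.32 over all. Olfr856-ps1 was the lowest member of the mRNA table in both conditions. Centring put 8 of 8 members in mutant cells and 5 of 8 in mock cells at least 4-fold lower, and equal totals put 8 of 8 there in both. The median over all genes fell by 1.30 to 1.76 on the log2 scale under these scalings. With equal totals the members fell by more than this median. Gm17821 went from -1.53 to -3.83 in mutant cells and from -0.44 to -3.11 in mock cells. Genes with low values shift less there, because the pseudocount is added after rescaling. With equal totals, the counts of members and the shares of all genes are thus not like for like. Of all genes, 9.19% were then at least 4-fold lower and 21.1% up when centred in mutant cells, and 8.95% and 15.2% in mock cells. With equal totals 10.5% were lower and 29.5% up in mutant cells, and 11.5% and 28.1% in mock cells.

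Gm26870 was very low in the IPs relative to the inputs. Its leading transcript was at 0.00057 of the input value in mutant cells (0.000442 to 0.000724) and at 0.00676 of it in mock cells (0.00511 to 0.00879). Of the noncoding genes measured, 10.3% of 3406 in mutant and 10.7% of 3138 in mock cells were at least 4-fold lower, and 25.7% and 23.5% were up. With at least 20 reads in both libraries of a ratio, 12.5% were lower and 8.7% up in mutant cells, and 12.8% and 4.17% in mock cells. Among the 165 with at least 500 mutant input reads, 56.4% were lower and 3.64% up in mutant cells, and 67.9% and 2.42% in mock cells. Of all noncoding genes, centring made 7.75% lower and 36.3% up in mutant cells, and 8.83% and 31.5% in mock cells. Equal totals made 7.87% lower and 28% up in mutant cells, and 9.88% and 31.4% in mock cells. Ranked from the lowest IP to input ratio among the 175 noncoding transcripts with at least 500 mutant input reads, its 3 transcripts were at positions 6, 7 and 10 in mutant cells and at 34, 35 and 37 in mock cells. Gm26870 thus differed from the other 8 genes, which kept between 0.156 and 0.637 of their input value in the mutant IP.

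**Figure D4:**
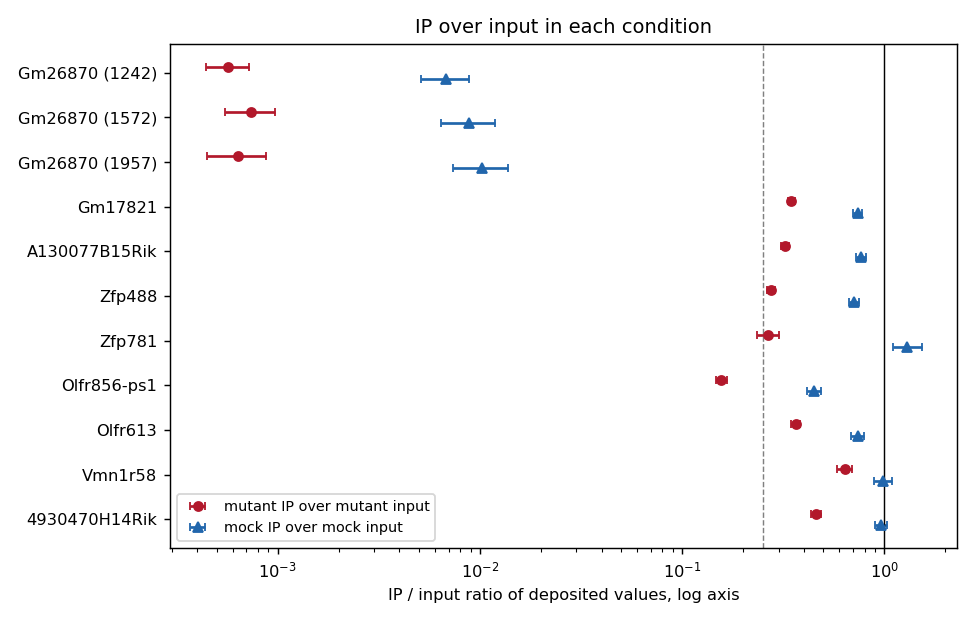
Ratio of IP to input (horizontal log axis) for each member transcript in mutant (red circles) and mock (blue triangles) cells, with exact 95% counting intervals as bars; the solid line is 1 and the dashed line a 4-fold lower IP. The Gm26870 transcripts lie at 0.00057 to 0.0102 and the other members at 0.156 to 1.30. Each mutant ratio lies below the mock ratio of the same transcript, a direction that the choice of the genes by input ratio favours.

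The specific IP enrichment is the mutant IP to input ratio divided by that of the mock. It uses the same 4 libraries and follows from the ratios above, so it adds no separate observation. Choosing the genes by their input ratio also favours low values of this enrichment. On the log2 scale it was -3.57 for Gm26870, -2.28 for Zfp781, -1.52 for Olfr856-ps1, -1.36 for Zfp488, -1.25 for A130077B15Rik, -1.09 for Gm17821, -1.07 for 4930470H14Rik, -1.02 for Olfr613 and -0.62 for Vmn1r58. Zfp781 was the 1 of 8 at least 4-fold lower, where 10.6% of 15060 genes were and 13.8% were up. Gm26870 was also lower, where 8.69% of 3968 noncoding genes were and 13.3% were up. With equal totals Zfp781 no longer passed.

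Several members of the mRNA table had similar values over the 4 libraries. Likeness was measured as the Euclidean distance over log2(value + 1) in the 4 libraries, so that a distance of 1 corresponds to a 2-fold difference in 1 library. It compares values that are not divided by length, so it depends on transcript length as well as on the pattern over libraries. For 5 of the 8 members of the mRNA table, the 3 nearest of all other transcripts in the table were themselves members. Zfp488 and A130077B15Rik were at a distance of 0.37, Olfr613 and 4930470H14Rik at 0.44, and Gm17821 and A130077B15Rik at 0.67. The choice of the genes used 2 of these 4 libraries, so the closeness is given as a description.
Genes near Vmn1r58 included Gm17644 (0.88) and A730017L22Rik (1.28), and Zfp781 was nearest to G530011O06Rik (1.06), Zfp937 (1.18) and Tyms (1.35), the thymidylate synthase gene. For 4930470H14Rik the neighbour outside the members was Kcnq1ot1 (1.41). Gm26870 had no close neighbour: the nearest genes to its leading transcript were Gm10062 (4.50), the H/ACA box snoRNA Snora64 (4.68) and Gm17300 (4.73).

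Noncoding transcripts in the other table came as close, a comparison chosen after the values were seen. The transcript ENSMUST00000206433.1 was at 0.14 from A130077B15Rik and 0.27 from Zfp488. Its values were 3782.78 and 1164.4 in the inputs and 1139.63 and 827.6 in the IPs, each close to that of A130077B15Rik. RP23-341H2.4, at 2400.56, 608.8, 752.59 and 545.6, was at 0.46 from Olfr613 and 0.75 from 4930470H14Rik. Whether the same reads were counted on these transcripts was not tested.

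The gene families of the members were not high as a whole. Because the members were chosen with their high input known, their shares of family input reads, here and below, are a description. The mRNA table lists 75 olfactory receptor genes, and Olfr856-ps1 and Olfr613 held 99.3% and 98.3% of the family's reads in the mutant and mock inputs, and 96.8% and 92.2% in the IPs. The other 73 summed to 62 and 65 reads in the inputs, and 58 of 73 had 0 reads in each. The next highest receptor, Olfr631, had 12 reads in the mutant input and 23 in the mock input. Of the 18 others measured between the inputs 10 passed 2-fold upward and 7 downward, their median log2 ratio being 1.08, at depths of at most 23 reads. Over all measured genes 37% passed upward and 21.8% downward.

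Vmn1r58 held 91.0% of the reads of 28 vomeronasal receptor genes in the mutant input and 90.3% in the mock input. The next were the pseudogene Vmn2r-ps129, with 65 and 33 input reads, and Vmn1r65, with 38 and 29. Of the 7 others measured between the inputs 2 passed 2-fold upward and 4 downward, their median log2 ratio being -1.14. Of all measured genes 37% passed upward and 21.8% downward, with a median of 0.51. Only 2 of the 27 others had at least 20 reads in each input, so this median rests mostly on very few reads. Those with more reads were higher in the mutant input, Vmn2r-ps129 at 36.11 against 13.2 and Vmn1r65 at 21.11 against 11.6.

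Zinc finger genes named Zfp are a large family that stem cells express, and here the members stood out less. Zfp488 and Zfp781 held 65.9% of the reads of 334 such genes in the mutant input and 45.1% in the mock input, but 12.7% and 13.5% in the IPs. In the mock input the 350 reads of Zfp937 were above the 269 of Zfp781. Between the inputs 166 others were measured. Of these 49 passed 2-fold upward and 35 downward, and their median log2 ratio was 0.31. Over all measured genes the shares were 37% and 21.8%. In the IPs the median over the 319 others was 0.29. The snRNA genes, which also held many input reads, had medians of 0.83 over 2 genes of the mRNA table and 0.47 over 13 of the noncoding table between the inputs.

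Other genes with clone or predicted names went both ways between the inputs, as did all genes measured. The 273 other predicted Gm genes measured between the inputs in the mRNA table had a median of 0.25, with 94 at least 2-fold higher and 75 lower, and the 1625 of the noncoding table had 0.53, with 495 and 193. The 443 other RIKEN clone genes of the mRNA table had a median of 0.55, with 175 higher and 95 lower, and the 444 of the noncoding table had 0.38, with 119 and 55. The medians of all genes measured were 0.51 and 0.48 in the 2 tables. Of all genes 37% were at least 2-fold higher and 21.8% lower in the mRNA table, and 29% and 13.6% in the noncoding table.

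Genes next to the members gave little to compare. RefSeq places 32 genes within 2 positions of the 8 members it lists, and 4 of these 32 have rows in the tables used here. Zfp317, beside Olfr856-ps1, had 38 reads in the mutant input and 59 in the mock input, where Olfr856-ps1 had 4729 and 1838. Gdf2, near Zfp488, had 4 and 0, 4930548J01Rik, beside 4930470H14Rik, had 1 and 0, and Gm5065, beside Vmn1r58, had 0 in both. The measured neighbours were far below the members in input reads. The members were chosen with their high input known, so this gap does not describe the loci.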

How the data were processed

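Per the submitters' processing notes, Bowtie and the mm9 build were used. The sources used here do not give Bowtie's version, the counting tool, strand handling or how multiply aligned reads were counted. The authors deposited 2 tables whose unit is a signal: 100% of the values were whole reads, within 0.02, divided by a fixed factor per library. The meaning of these factors was not stated. Values were used as deposited, and reads were recovered from them.

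Of gene names, 26 had become dates and were restored through RefSeq accessions. For comparisons across genes, the transcript with the highest mean stood for a symbol, and log2 ratios used a pseudocount of 1 among genes with a value of at least 1 in a library of the ratio, which understates changes of low genes. Called means at least 2-fold between inputs and 4-fold otherwise. Intervals are exact conditional binomial or Clopper-Pearson 95% intervals (scipy 1.17.1), tested on simulated data; PCR copies are not independent molecules. With 1 library per group no test was run. The members, families (by symbol pattern) and markers were chosen with earlier results of these data known. Named genes are the members, their 3 nearest profiles, and leading family genes; 1 of these is not reported here. Alternatives were a pseudocount of 5, a minimum value of 5, centring, equal totals and summed transcripts; backgrounds by depth and upstream words of 20 and 30 bases were added after seeing the data.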

Additional observations from a re-analysis of the deposited data

Results flagged for a closer look

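For 2 member transcripts, the mutant to mock ratio lay on opposite sides of 1 in the inputs and the IPs, which was noted from their signs and not tested. Zfp781 was 4.71 times as high in the mutant as in the mock input, and its mutant to mock ratio in the IPs was 0.963 (0.829 to 1.12). The Gm26870 transcript ENSMUST00000181957.1 was at 12.8 in the inputs and at 0.797 (0.499 to 1.27) in the IPs. Both IP intervals include 1, so an opposite direction is not shown.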

How the results depend on the processing

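Scaling between libraries moved the results most. The count of mRNA table members at least 2-fold higher in the mutant input, 8 of 8 as deposited, was 5 when centred and 4 with equal totals. Members at least 4-fold lower in IP than input numbered 1 (mutant) and 0 (mock) as deposited, 8 and 5 when centred, and 8 and 8 with equal totals. The count lower in the specific IP enrichment, 1 as deposited, was 0 with equal totals. These changes follow from the scalings' own construction. Centring shifts all genes of a ratio by the same amount. Equal totals rescales values before the pseudocount is added, so genes with low values shift less than the members. A pseudocount of 5 lowered the input count from 8 to 7, since Vmn1r58 fell just below 2-fold, and changed no other count of members. A minimum value of 5 and summed transcripts changed none. This minimum could remove no member, since every member value lies above it, and summing could act on Gm26870 only. No member ratio past its threshold changed sign under any alternative run. Words of 20 and 30 bases gave the same upstream picture, with 61 and 39 genes sharing a word with Olfr613 and 3 and 2 with Zfp781. No paired analysis was possible because each group holds 1 library. Depth limits Gm26870 in the IPs, where its transcripts have 37 to 67 reads.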
